A study of Mus musculus with 4 samples.

Results

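Saa3, serum amyloid A 3, and Ptx3, the long pentraxin PTX3, were 2 of the 328 genes of a Xenium panel, and were paired because both encode secreted acute phase proteins. They were chosen by their place among the leading genes of an inflammatory fibroblast cluster in an earlier look at these data, so their levels by kind of cell and in wounds are given as a description without a test. Xenium reads single RNA molecules in place in a tissue section and assigns each to a cell outlined around its nucleus. Its reads of Saa3 and Ptx3 were counted in 17 mouse tissue sections on 4 slides, 1 each of male unwounded dorsal skin, female unwounded dorsal skin, buccal mucosa and male dorsal skin on day 4 after full-thickness wounding. The skin came from transgenic TRE-Pitx1/Krt5-rtTA littermates. PITX1+ mice had eaten doxycycline chow for 6 weeks, which turns on the homeobox factor Pitx1 through an rtTA driven by the Krt5 promoter of basal keratinocytes. Control mice carried the same transgenes and ate normal chow, labelled vehicle. The buccal mucosa was healthy cheek lining labelled Control and vehicle. The labels give the conditions of a slide and not of a section. The place of a section on its slide therefore gave its condition, which yielded 3 Control, 4 PITX1+, 7 buccal, 1 Control wound and 2 PITX1+ wound sections. Control 1, Control 2, PITX1+ 1 and PITX1+ 2 were female and lay on the same slide, and Control 3, PITX1+ 3 and PITX1+ 4 lay on the male slide. The study counts as many PITX1+ mice as there are unwounded PITX1+ sections, but for the other sections it is not stated whether any shared an animal, so the spread between those may be partly technical.

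Serum amyloid A proteins bind lipids and retinol and rise in inflammation, and Saa3 is the mouse member made mainly outside the liver, by macrophages, adipocytes and stromal cells. Ptx3 is a pattern recognition molecule that binds microbes and complement and helps to organise matrix, and it is made locally by fibroblasts, endothelium and myeloid cells. Interleukin 1 and TNF induce both genes through NF-kB, C/EBP and AP-1 factors, and wound fibroblasts are a known source of both.

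The promoters are shown because factors of the interleukin 1 response act on such windows and because both genes were read in the same cells below. Sequences are from RefSeq, with which both genes matched, on GRCm38.p6. The Saa3 window, chr7:46715627-46715926 on the minus strand, lies within the annotated span of the gene at chr7:46711998-46719615. The Ptx3 window, chr3:66219637-66219936 on the plus strand, spans the start of the gene at chr3:66219887-66225806. Each runs from 250 bases before to 50 bases after the start site, and capitals mark motif matches.
Saa3: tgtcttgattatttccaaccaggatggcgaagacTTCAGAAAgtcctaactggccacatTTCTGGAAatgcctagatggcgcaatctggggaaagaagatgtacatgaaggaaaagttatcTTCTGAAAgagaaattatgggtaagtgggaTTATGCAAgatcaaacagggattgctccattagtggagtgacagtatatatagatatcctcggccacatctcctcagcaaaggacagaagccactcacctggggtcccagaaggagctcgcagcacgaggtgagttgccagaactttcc
Ptx3: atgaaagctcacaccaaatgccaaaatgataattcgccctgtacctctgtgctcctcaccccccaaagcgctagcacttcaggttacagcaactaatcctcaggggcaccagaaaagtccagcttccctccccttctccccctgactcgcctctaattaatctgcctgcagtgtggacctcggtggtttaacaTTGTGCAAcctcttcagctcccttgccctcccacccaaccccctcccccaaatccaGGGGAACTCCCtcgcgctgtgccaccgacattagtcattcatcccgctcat
The letters searched on both strands were TTNNGNAA for C/EBP, TGANTCA for AP-1 and, for NF-kB, GGG and CC with any 5 letters between them, which is looser than the usual NF-kB consensus. The Saa3 window held 4 C/EBP matches, whose first bases lay at -216, -191, -129 and -99 from the start, and 0 for NF-kB or AP-1. The Ptx3 window held 1 C/EBP match at -57 and 2 overlapping NF-kB matches around the start, and 0 for AP-1. Of 32851 mouse promoters of this length, 40.7% held the C/EBP letters, 50.8% the NF-kB letters and 7.81% the AP-1 letters, and no binding is implied by a match.

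Sections held 136365 to 5581930 transcripts, with medians of 11 to 124 per cell, and 426404 of 514895 cells with at least 10 transcripts were kept. Pitx1 was read first in keratinocyte-like cells, as the check of the labels. In CPM, a gene's transcripts scaled to the same total in every library, it stood at 14.0 to 59.0 in the 3 Control sections and at 1068 and 863 CPM in PITX1+ 3 and PITX1+ 4, but at only 42.6 and 78.3 CPM in PITX1+ 1 and PITX1+ 2. The wounds held 52.1 CPM in Control and 642 and 327 CPM in PITX1+ skin, and 6 buccal sections 737 to 1261 CPM. Pitx1 in the female sections placed as PITX1+ thus went against the condition that their place gave. Their cell totals lay 0.332% and 0.0856% from totals that the study lists for PITX1+ skin. From the nearest listed total of another condition they lay 237% and 299% away. The names PITX1+ 1 and PITX1+ 2 below stand for place on the slide and these totals, not for a raised Pitx1. The edgeR fits of both members are given for each slide alone as well. The other comparisons of unwounded skin pool both slides. Buccal 3 held 0 keratinocyte-like cells, so the lining epithelium was absent there. The panel's 61 negative controls were called a median of 9 to 19 times per slide, but the brightest up to 3643 times, so low counts of either gene can lie in the range of false calls.

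Saa3 differed more between sections than Ptx3 did. In whole sections, Saa3 stood at 101, 126 and 47.0 CPM in Control skin, from 74, 61 and 21 transcripts. It stood at 8043 and 2149 CPM in PITX1+ 1 and PITX1+ 2 and at 178 and 86.9 CPM in PITX1+ 3 and PITX1+ 4. The Control wound held 3145 CPM and the PITX1+ wounds 5845 and 8949 CPM. The order of levels thus ran from buccal mucosa through Control and male PITX1+ skin, which overlapped, to PITX1+ 2, the Control wound, PITX1+ wound 1 and then PITX1+ 1 and PITX1+ wound 2. Ptx3 stood at 218, 153 and 94.0 CPM in Control skin, at 323, 136, 89.7 and 137 CPM in PITX1+ 1 to 4, and at 282, 710 and 360 CPM in the Control wound and the PITX1+ wounds. Control and PITX1+ skin overlapped for Ptx3, and of the wounds both PITX1+ ones stood above every unwounded section. In buccal mucosa Saa3 was read 1 to 10 times per section, at 1.20 to 22.4 CPM, and Ptx3 14 to 117 times, at 22.7 to 298 CPM with a median of 49.4 CPM.

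**Figure D1:**
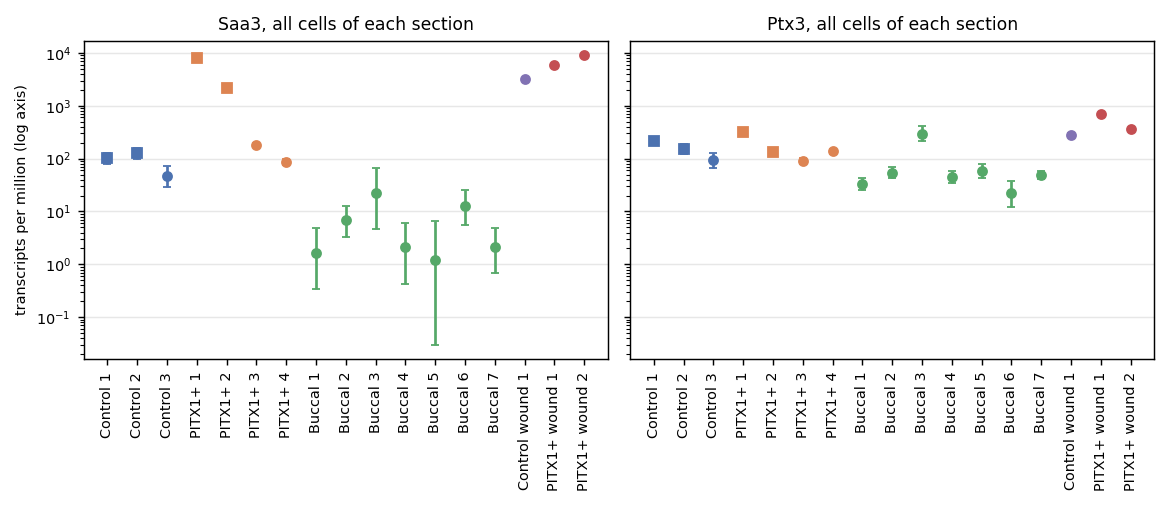
Saa3 (left) and Ptx3 (right) in all cells of each of the 17 sections, as CPM on a log axis. Bars are 95% Poisson intervals, squares are sections of the female slide and circles all others, and the Saa3 points run from 1.20 CPM in Buccal 5 to 8949 CPM in PITX1+ wound 2 while those of Ptx3 span 22.7 to 710 CPM.

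Compared over sections, Saa3 was 3.08 higher in the sections placed as PITX1+ than in Control skin on the log2(CPM + 1) scale, which did not pass a two-sided exact permutation test (p = 0.171, 0.229 adjusted over 4 comparisons, 3 sections against 4). The Ptx3 difference was 0.06 (exact permutation p = 1). With 3 sections against 4 the smallest p the test can give is 0.0571. The test took no account of slide, and within each slide every section placed as PITX1+ held more Saa3 in CPM than the Control sections beside it. Between PITX1+ 4 and Control 3 this rests on the quality filter. With reads of any quality score counted they held 124.5 and 123.9 CPM, against 86.9 and 47.0 CPM, the last from 21 transcripts. Saa3 was lower in buccal mucosa than in Control skin by a log2 difference of -3.96, and all 7 buccal sections lay below all 3 Control sections. Its exact permutation p of 0.0167 is the smallest that 3 sections against 7 can give, and it became 0.0667 after adjustment. Ptx3 differed by -1.38 (exact permutation p = 0.117, adjusted 0.229), with Buccal 3 above every Control section. Tissue and slide cannot be told apart here, and per cell rather than in CPM the Ptx3 difference between buccal mucosa and Control skin turned to 0.17. Without Buccal 3 both differences passed, at -4.31 for Saa3 and -1.78 for Ptx3 (adjusted exact permutation p = 0.0476 for each). Both then stood at the smallest p that the remaining sections allow. Saa3 already stood at its smallest p with all 7, so only the adjustment over 4 comparisons moved it past the threshold. For Ptx3 the section left out was the only buccal one above any Control section.

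Fibroblast-like cells, named from clusters in which at least 3 fibroblast markers were raised, held the comparison in which Saa3 passed the test. Per cell, Saa3 was read 0.00476, 0.00585 and 0.00232 times in Control 1 to 3, which rests on 14, 14 and 6 transcripts. The sections placed as PITX1+ 1 and PITX1+ 2 held 0.944 and 0.334 per cell, and PITX1+ 3 and PITX1+ 4 held 0.0292 and 0.0182. Per cell, every section placed as PITX1+ was therefore above every Control section. Cells of PITX1+ 4 were read deeper, with medians of 59 to 125 transcripts by place in the skin, against 26 to 46 in Control. Saa3 was also set against 100 transcripts of Col1a1, Lum and Mmp2, leaving out the inflammatory kind described below. It was 0.105, 0.0346 and 0.0209 in Control 1 to 3 and 14.2, 2.32, 0.329 and 0.102 in PITX1+ 1 to 4. PITX1+ 4 was thus not above Control 1 on that scale. In edgeR's quasi-likelihood test with slide as covariate, Saa3 was higher in fibroblast-like cells of the sections placed as PITX1+ by a log2 fold change of 5.41 (SE 0.88, adjusted p = 0.00565, 3 against 4 sections), the largest log2 fold change among the 328 genes tested. In this comparison 16.5% of the genes tested were called, 10.1% as higher and 6.4% as lower, and Saa3 was the only member called. The members had been chosen as leading genes of an inflammatory fibroblast cluster in these same data. Unwounded cells of the inflammatory kind lay mainly in PITX1+ 1 and PITX1+ 2, with 835 and 322 against 2 to 4 per Control section. The test and rank of Saa3 are therefore no independent support. Ptx3 was read 0.0105, 0.00376 and 0.00309 times per cell in Control and 0.0304, 0.0149, 0.0158 and 0.0115 times in PITX1+ 1 to 4. In CPM the conditions overlapped, at 68.4 to 258 in Control and 113 to 708 in PITX1+ sections, and the log2 fold change of 1.07 (SE 0.46) did not pass (edgeR adjusted p = 0.150). It was 1.21 with female skin alone and 0.85 with male skin alone, and passed in neither (edgeR adjusted p = 0.179 and 0.540).

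The Saa3 result leaned on the female slide, where Pitx1 was not raised. With the female slide alone its log2 fold change was 6.39 (edgeR adjusted p = 0.000386), and with the male slide alone it was 2.06 and did not pass (edgeR adjusted p = 0.166). The difference between the slides, tested as an interaction, was 4.42 on the log2 scale (SE 1.24, unadjusted p = 0.00336, edgeR adjusted p = 0.276), so it did not pass either. Without the slide covariate the fold change was 5.56 with an edgeR adjusted p of 0.195. Fibroblast-like cells of the groups came from partly different clusters. Most of those in Control sections lay in clusters led by Pi16, by Col1a1 with Fgfr4, or by Efemp1 with Lum, those of PITX1+ 1 and PITX1+ 2 in clusters led by Fn1 with Penk or by the Wnt inhibitor Wif1, and those of PITX1+ 3 and PITX1+ 4 in the Efemp1 and Wif1 clusters. Within the Pi16 cluster, which held at least 278 cells in every unwounded skin section, Saa3 per cell was 0.00464, 0.00820 and 0.00313 in Control 1 to 3 and 0.923, 0.150, 0.00719 and 0.00515 in PITX1+ 1 to 4. Inside that cluster the values of PITX1+ 3, PITX1+ 4 and Control 3 rest on 2, 2 and 1 transcripts and cannot be ordered, and the female PITX1+ sections lay above every Control section. The cluster led by Efemp1 and Lum, which also carried the chemokines Ccl19 and Cxcl13, held 0.0631 and 0.0338 per cell in PITX1+ 3 and PITX1+ 4, against 1 transcript in 1026 cells of Control 3 and 1 in 61 cells of Control 1.

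Among fibroblast-like cells the inflammatory kind, a cluster led by the metalloproteinase Mmp3, the neutrophil chemokine Cxcl5, Timp1, Tnc and the monocyte chemokine Ccl7, held more Saa3 per cell than the other fibroblast-like cells did as a whole in each of the 5 sections with at least 50 such cells. Both members had been left out of the clustering, but they had been chosen for leading such a cluster in these same data. Higher Saa3 in this kind thus follows in part from that choice and is no independent support. Of this cluster's cells, 90.4% lay in wounds. Saa3 was read 3.38 and 2.74 times per cell in the 835 and 322 such cells of PITX1+ 1 and PITX1+ 2, and 1.33, 1.66 and 2.07 times in the 643, 2645 and 8093 cells of the Control wound and PITX1+ wounds 1 and 2. Control skin held 2 to 4 such cells per section and PITX1+ 3 and PITX1+ 4 held 18 and 7, too few for a level. Up to 31 Saa3 transcripts were read in a single inflammatory fibroblast-like cell, and 28.4% of those in PITX1+ 1 held 5 or more. The Wif1-led clusters held little Saa3 in the wounds, at 0.0347 to 0.156 per cell, against 1.19 to 3.30 in the cluster led by Efemp1 and Lum. In PITX1+ wound 1 that cluster, at 3.30, was above the inflammatory kind, at 1.66.

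Immune-like cells carried Saa3 in the same sections. Macrophage-like cells held 0.00584, 0.00338 and 0.00387 Saa3 transcripts per cell in Control 1 to 3, 0.973 and 0.356 in PITX1+ 1 and PITX1+ 2, 0.0258 and 0.0276 in PITX1+ 3 and PITX1+ 4, and 0.487, 0.899 and 1.01 in the wounds. Control and PITX1+ sections again did not overlap per cell, but the Control values rest on 8, 1 and 5 transcripts. Per 100 transcripts of Col1a1, Lum and Mmp2 in these cells, PITX1+ 4 held 0.453 and Control sections 0.0891 to 0.349. From nuclear reads alone PITX1+ 4 held 0.159, below the 0.367 to 0.787 of Control sections. Those nuclear values rest on 1 or 2 Saa3 transcripts per section. Over all immune-like cells the log2 fold change of Saa3 in the sections placed as PITX1+ was 5.65 (SE 1.06), and its edgeR adjusted p of 0.0642 did not pass, nor did Ptx3 at 1.31 (SE 0.65, edgeR adjusted p = 0.368). In this comparison 0 of 326 genes, 0.0%, were called by edgeR, 54 had an unadjusted p under 0.05, and DESeq2 called 23 genes, among them Saa3 at 4.87 (adjusted p = 4.94e-05). The female slide alone and 4 other settings, and leaving out Control 3 or PITX1+ 4, also moved Saa3 past the threshold. Its log2 fold change was 6.85 with female skin alone (edgeR adjusted p = 0.00355) and 2.01 with male skin alone (edgeR adjusted p = 0.721), and that of Ptx3 was 1.80 and 0.30 (edgeR adjusted p = 0.204 and 0.935). Macrophage-like cells made up 14.0% and 13.5% of cells in PITX1+ 1 and PITX1+ 2, 5.68% and 6.73% in PITX1+ 3 and PITX1+ 4, and 7.90%, 2.51% and 10.2% in Control 1 to 3.

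Macrophage-like cells lie among fibroblasts, and their Saa3 was set beside the transcripts of fibroblast genes in the same outlines. In PITX1+ 1, Saa3 was read 14.2 times per 100 transcripts of Col1a1, Lum and Mmp2 in other fibroblast-like cells, 70.4 in inflammatory fibroblast-like, 61.3 in macrophage-like and 304 in dendritic or Langerhans-like cells. In PITX1+ wound 2 the same ratios were 7.24, 18.2, 24.8 and 45.5. In macrophage-like cells it thus lay between those of the fibroblast kinds in the first section and above both in the second, and how much of the Saa3 in immune-like outlines was read from RNA of adjacent cells was not tested. A cluster of macrophage-like cells of wounds had Timp1, Cxcl5 and Mmp3 among its leading genes, which are also those of the inflammatory fibroblast-like cells. Neutrophil-like cells, at 20.4%, 15.4% and 20.9% of cells in the wounds, held 0.0233, 0.137 and 0.267 Saa3 transcripts per cell, less than macrophage-like cells did in each wound.

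Keratinocyte-like cells held few transcripts of either gene per cell but, being many, supplied much of the little that Control 1 and Control 2 held, 40.5% and 52.5% of Saa3 and 40.6% and 41.9% of Ptx3. Saa3 per cell was 0.00490, 0.00684 and 0.000723 in Control 1 to 3, 0.0153, 0.0105, 0.00495 and 0.000672 in PITX1+ 1 to 4, and 0.00798, 0.0188 and 0.0481 in the wounds. Ptx3 per cell was 0.0106, 0.00663 and 0.000723 in Control 1 to 3, against 0.0105, 0.00376 and 0.00309 in their fibroblast-like cells, and 0.00710, 0.00646, 0.000721 and 0.000504 in PITX1+ 1 to 4. The conditions overlapped in unwounded skin for both genes, and female sections held more Ptx3 than male ones. Neither member passed the test in keratinocyte-like cells, where 32.9% of 328 genes were called. The log2 fold change was 0.58 for Saa3 (SE 0.78, edgeR adjusted p = 0.569) and -1.04 for Ptx3 (SE 0.41, edgeR adjusted p = 0.0872). By slide, Saa3 was at 0.74 with female and 0.50 with male skin and Ptx3 at -1.78 with male skin, none of which passed (edgeR adjusted p = 0.111, 0.855 and 0.499). DESeq2 called Ptx3 as lower at -1.06 (adjusted p = 0.00971), and so did edgeR on the female slide alone at -0.74 (adjusted p = 0.0478).

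**Figure D2:**
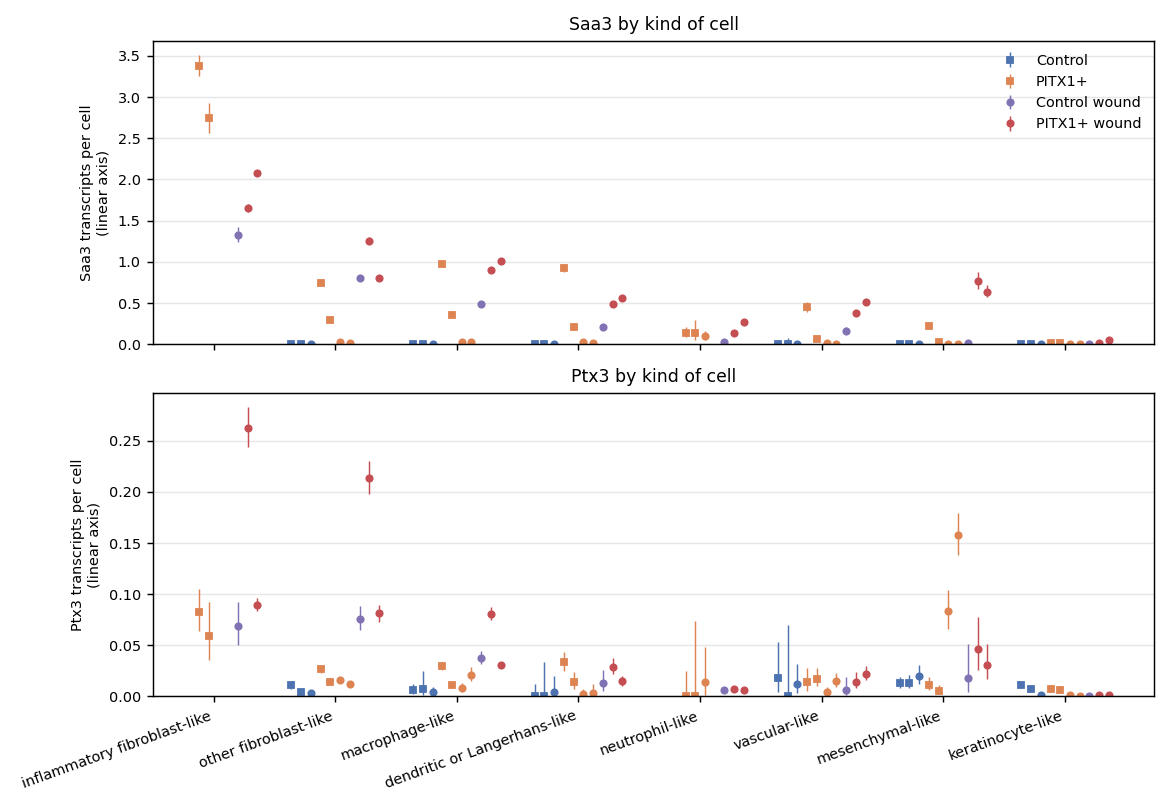
Saa3 (top) and Ptx3 (bottom) transcripts per cell on linear axes, by kind of cell, for skin and wound sections with at least 50 cells of a kind. Points are sections, coloured by condition, squares are the female slide and bars are 95% Poisson intervals, with Saa3 highest at 3.38 in the inflammatory fibroblast-like cells of PITX1+ 1 and Ptx3 highest at 0.263 in those of PITX1+ wound 1.

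Ptx3 reads of the female slide lay over the nucleus more often than those of the panel as a whole. There 88.2% of 448 Ptx3 transcripts in keratinocyte-like cells lay over the nucleus, against 45.1% for all panel genes there, and only 10 of 328 genes were more nuclear. In fibroblast-like cells the shares were 63.8% and 40.4%, and in mesenchymal-like cells 66.7% and 24.4%. In fibroblast-like cells the direction was the same in male unwounded skin, at 49.0% and 38.9%, and in wounds, at 55.9% and 43.0%. In mesenchymal-like cells it was the same on every slide, with 34.2% and 16.0% in male unwounded skin. In buccal fibroblast-like cells it was the opposite, at 30.6% and 37.4%. In keratinocyte-like cells it was the opposite on every other slide. There 37.5% of 24 Ptx3 transcripts lay over the nucleus in male unwounded skin, 39.1% of 23 in wounds and 11.1% of 9 in buccal mucosa. All panel genes stood at 54.5%, 42.1% and 26.3% in these cells. The negative controls of the female slide also lay over the nucleus in 76.9% of calls, against 18.3% to 33.2% on the other slides, and the part of false calls in the Ptx3 reads of that slide, in any class, was not tested. Saa3 lay over the nucleus in 22.2% to 27.0% of transcripts on every slide, less than the 27.9% to 45.2% of all panel genes. In keratinocyte-like cells it was above all panel genes on the female slide, at 51.5%, and in wounds, at 46.2%. Most Saa3 reads of the female slide came from PITX1+ 1 and PITX1+ 2. In fibroblast-like cells of Control 1 and Control 2, 10 of 14 and 9 of 14 Saa3 reads were nuclear. In their keratinocyte-like cells 22 of 30 and 14 of 32 were. The part of false calls in these Control reads was not tested.

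In buccal mucosa and in male PITX1+ skin, Ptx3 per cell was highest in mesenchymal-like cells, whose clusters were led by the muscle filament gene Des. In PITX1+ 1 and PITX1+ 2 it was higher in fibroblast-like cells. Mesenchymal-like cells held 0.0127, 0.0134 and 0.0201 Ptx3 transcripts per cell in Control 1 to 3, 0.0112 and 0.00508 in PITX1+ 1 and PITX1+ 2, and 0.0835 and 0.158 in PITX1+ 3 and PITX1+ 4. Both male PITX1+ sections thus stood above every other section and both female ones below every Control section. These cells supplied 60.5% of all Ptx3 of PITX1+ 4 while making up 5.33% of its cells. They were deeper read there, with a median of 125 transcripts per cell against 30 in Control 1. The male PITX1+ sections held 1056 and 1127 CPM and the Control sections 389, 481 and 481 CPM, and thinned to 20 transcripts per cell the share of cells with Ptx3 was 1.48% and 1.72% in PITX1+ 3 and PITX1+ 4 and 0.738% to 1.19% in Control sections. In buccal mucosa the mesenchymal-like cells held 0.0164 to 0.0437 Ptx3 transcripts per cell.

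In the wounds, Saa3 and Ptx3 were both higher in fibroblast-like cells than in unwounded Control skin. Wounds and unwounded skin lay on different slides, so wound and slide cannot be told apart. Saa3 was read 0.927 times per fibroblast-like cell in the Control wound and 1.44 and 1.61 times in the PITX1+ wounds. The ratio to the Control wound was 1.55 for PITX1+ wound 1 and 1.74 for PITX1+ wound 2, with 95% intervals of 1.48 to 1.62 and 1.67 to 1.81 that cover counting error only. From nuclear reads alone the ratios were 1.94 and 2.63. Ptx3 was read 0.0742, 0.236 and 0.0864 times per cell. Its ratios were 3.18 (2.75 to 3.70) in PITX1+ wound 1 and 1.16 (1.00 to 1.36) in PITX1+ wound 2, so the excess of Ptx3 was mainly that of a single wound. There was 1 Control wound, so the difference between conditions has no replicate check and no test. The inflammatory kind made up 3.52% of cells in the Control wound and 6.92% and 12.1% in the PITX1+ wounds. Within other fibroblast-like cells Saa3 was 0.807 per cell in the Control wound, 1.26 in PITX1+ wound 1 and 0.805 in PITX1+ wound 2, but these averages come from different clusters. The low Wif1-led clusters held 167 and 144 such cells in the Control wound and 1705 and 723 in PITX1+ wound 2. Within each fibroblast cluster shown for both, PITX1+ wound 2 held more Saa3 per cell than the Control wound, as in the cluster led by Efemp1 and Lum with 1.80 against 1.19. At least 1 Saa3 transcript was read in 31.9% to 51.6% of fibroblast-like cells of the wounds, and in 14.0%, 20.4% and 27.5% after thinning each cell to 20 transcripts. In keratinocyte-like cells the unthinned shares were 0.693%, 1.48% and 3.72%, at medians of 99 to 111 transcripts per cell against 75 to 86 in fibroblast-like cells.

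The wound bed was taken as the stretch nearly free of keratinocyte-like cells, and was 2700, 2700 and 2100 µm wide in the Control wound and in PITX1+ wounds 1 and 2. Of 15506, 20343 and 12403 cells in these beds, 3719, 5637 and 5969 had at least 10 transcripts and were kept. The study left the eschar, which it describes as mostly dead or dying cells, out of its own Xenium analysis, which was not done here. Ptx3 followed the bed in PITX1+ wound 1. Its fibroblast-like cells held 0.707 Ptx3 transcripts per cell in the bed, 0.525 within 250 µm of it, and 0.275, 0.158, 0.211 and 0.176 in zones up to 500, 1000 and 2000 µm and beyond. Bed cells were read deeper, at a median of 163.5 transcripts per cell against 68 to 111 outside, and in CPM the fall was smaller, from 4109 in the bed and 4198 within 250 µm to 2845, 1611, 2476 and 1833. The 2 flanks of that wound both held more within 250 µm, 0.618 and 0.423, than at 1000 to 2000 µm, 0.279 and 0.0692. In PITX1+ wound 2 Ptx3 ranged from 0.0531 to 0.157 over the zones with no such fall, and the Control wound peaked at 500 to 1000 µm with 0.129. Saa3 had no shared peak. It was highest at 500 to 1000 µm in the Control wound (1.62) and at 250 to 500 µm in PITX1+ wound 2 (2.76), and ranged from 0.942 to 1.55 over all zones of PITX1+ wound 1. More than 2000 µm from the bed, fibroblast-like cells still held 1.49 and 1.53 Saa3 transcripts in the PITX1+ wounds and 0.324 in the Control wound. Sections of 8047 to 10035 µm set this distance, and the bed of the Control wound held too few fibroblast-like cells for a level.

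**Figure D3:**
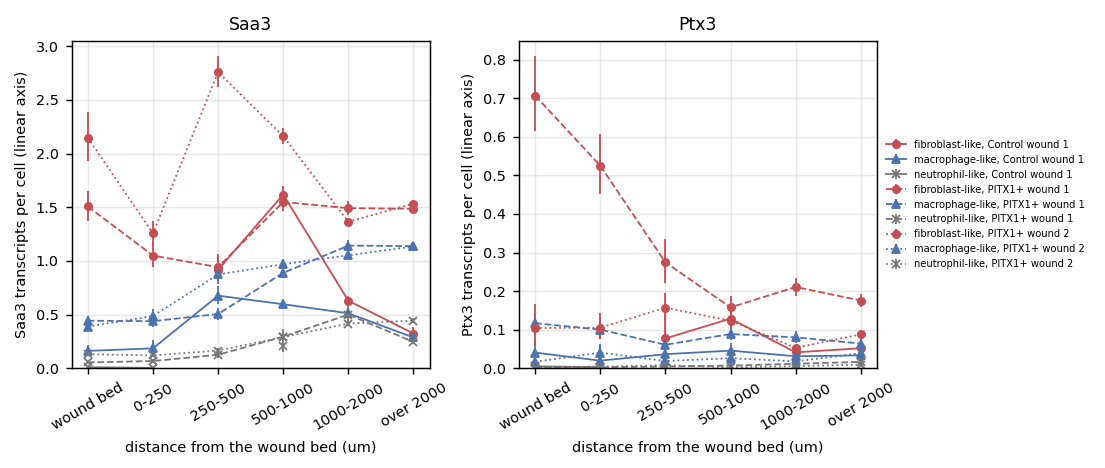
Saa3 (left) and Ptx3 (right) transcripts per cell on linear axes against distance from the wound bed in µm, in fibroblast-like (red), macrophage-like (blue) and neutrophil-like (grey) cells of the 3 wounds. Bars are 95% Poisson intervals, and the Ptx3 of PITX1+ wound 1 falls from 0.707 in the bed to 0.158 at 500 to 1000 µm, or from 4109 to 1611 in CPM, which is not drawn.

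Macrophage-like cells had their lowest Saa3 per cell at the bed and beside it, in values not scaled by depth of reading. In the bed they held 0.163, 0.443 and 0.388 transcripts per cell in the Control wound and PITX1+ wounds 1 and 2, and at 1000 to 2000 µm 0.512, 1.14 and 1.05. Neutrophil-like cells also held less there, with 0.0105, 0.0549 and 0.131 in the bed and 0.207, 0.294 and 0.290 at 500 to 1000 µm. Fibroblast-like cells over 200 µm from any neutrophil-like cell held less of both genes than those at 50 to 200 µm in all 5 sections where this could be read. In PITX1+ wound 2 the values were 0.295 and 1.76 for Saa3 and 0.0196 and 0.129 for Ptx3, and in the Control wound 0.473 and 1.40 for Saa3. Cells within 50 µm were not higher than those at 50 to 200 µm for Saa3 in any of the 5, with 1.64 in PITX1+ wound 2 and 1.23 in the Control wound. For Ptx3 they were higher in PITX1+ 1 (0.0741 against 0.0454), PITX1+ 3 (0.0264 against 0.0194) and PITX1+ wound 1 (0.271 against 0.202), and lower in the other two. In CPM the order in PITX1+ wound 1 turned, with 2384 within 50 µm and 2506 at 50 to 200 µm, at medians of 99 and 60 transcripts per cell.

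Both genes were higher in the depth of the skin than near its surface. Fibroblast-like cells were split into 4 equal sets by depth. Beside the bed, the set nearest the surface and the deepest set held 0.668 and 1.98 Saa3 transcripts per cell in the Control wound, 0.741 and 2.60 in PITX1+ wound 1, and 1.38 and 3.73 in PITX1+ wound 2. For Ptx3 the same pairs were 0.0107 and 0.189, 0.0512 and 0.760, and 0.0235 and 0.290. In unwounded skin, PITX1+ 1 held 0.328 and 1.47 Saa3 transcripts per cell and PITX1+ 4 held 0.00630 and 0.0410. The deepest set was the higher in every section for Ptx3 and in every section but Control 2 for Saa3, where 3 transcripts were read in each. Depth of reading rose with depth in some sections, from a median of 59 to 125 transcripts per cell in PITX1+ 4, but Saa3 in CPM still went from 92.3 to 302 there. In PITX1+ 3 it did not rise in CPM, at 460 and 421.

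**Figure D4:**
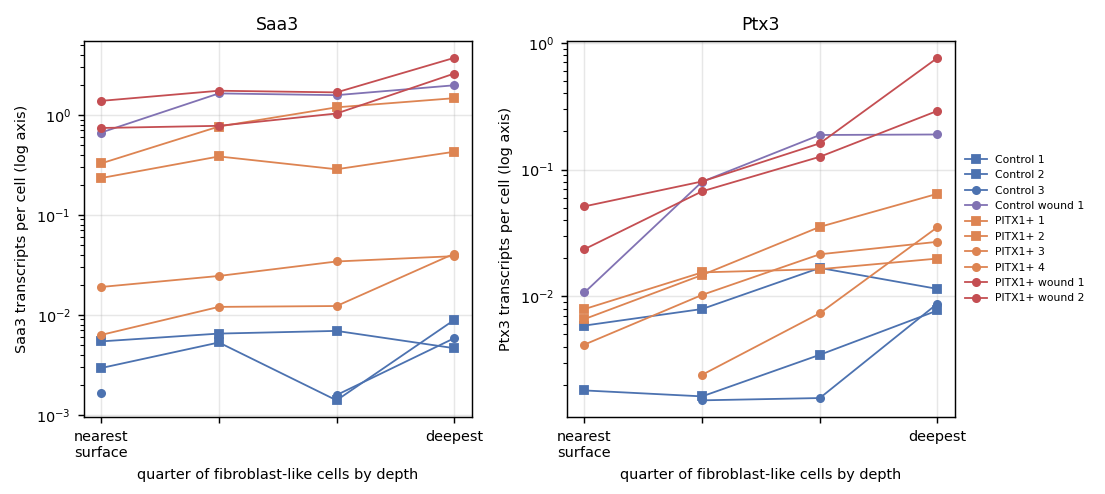
Saa3 (left) and Ptx3 (right) transcripts per fibroblast-like cell on log axes in 4 equal sets of cells from the surface to the deepest, in unwounded skin and within 1000 µm of the wound beds. Lines are sections, squares are the female slide and sets with 0 transcripts have no point, and the line of PITX1+ wound 1 rises from 0.0512 to 0.760 for Ptx3.

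Saa3 was patchy along the unwounded sections. Cut into stretches of 500 µm, PITX1+ 1 held 0.0799 to 2.16 Saa3 transcripts per fibroblast-like cell over 25 stretches, with a median of 0.756. PITX1+ 2 held 0.0396 to 1.33, with a median of 0.187. In these sections 24 and 21 stretches were above 0.1 per cell, so Saa3 was raised along most of their length. PITX1+ 3 reached 0.182 with a median of 0.00893 and PITX1+ 4 reached 0.216 with a median of 0.00635, and only 3 of 27 and 1 of 28 stretches passed 0.1. A single stretch of PITX1+ 4 held 40 of the 119 Saa3 transcripts that its stretches held in fibroblast-like cells, and the top stretch of PITX1+ 3 held 28.1%. Most Saa3 reads of both thus lay outside the top stretch. In Control 1 the top stretch held 50%, which is 5 transcripts. The highest stretch of any Control section held 0.0272. Ptx3 passed 0.1 in 1 stretch of PITX1+ 1, at 0.263, and in 0 stretches of the other unwounded sections.

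**Figure D5:**
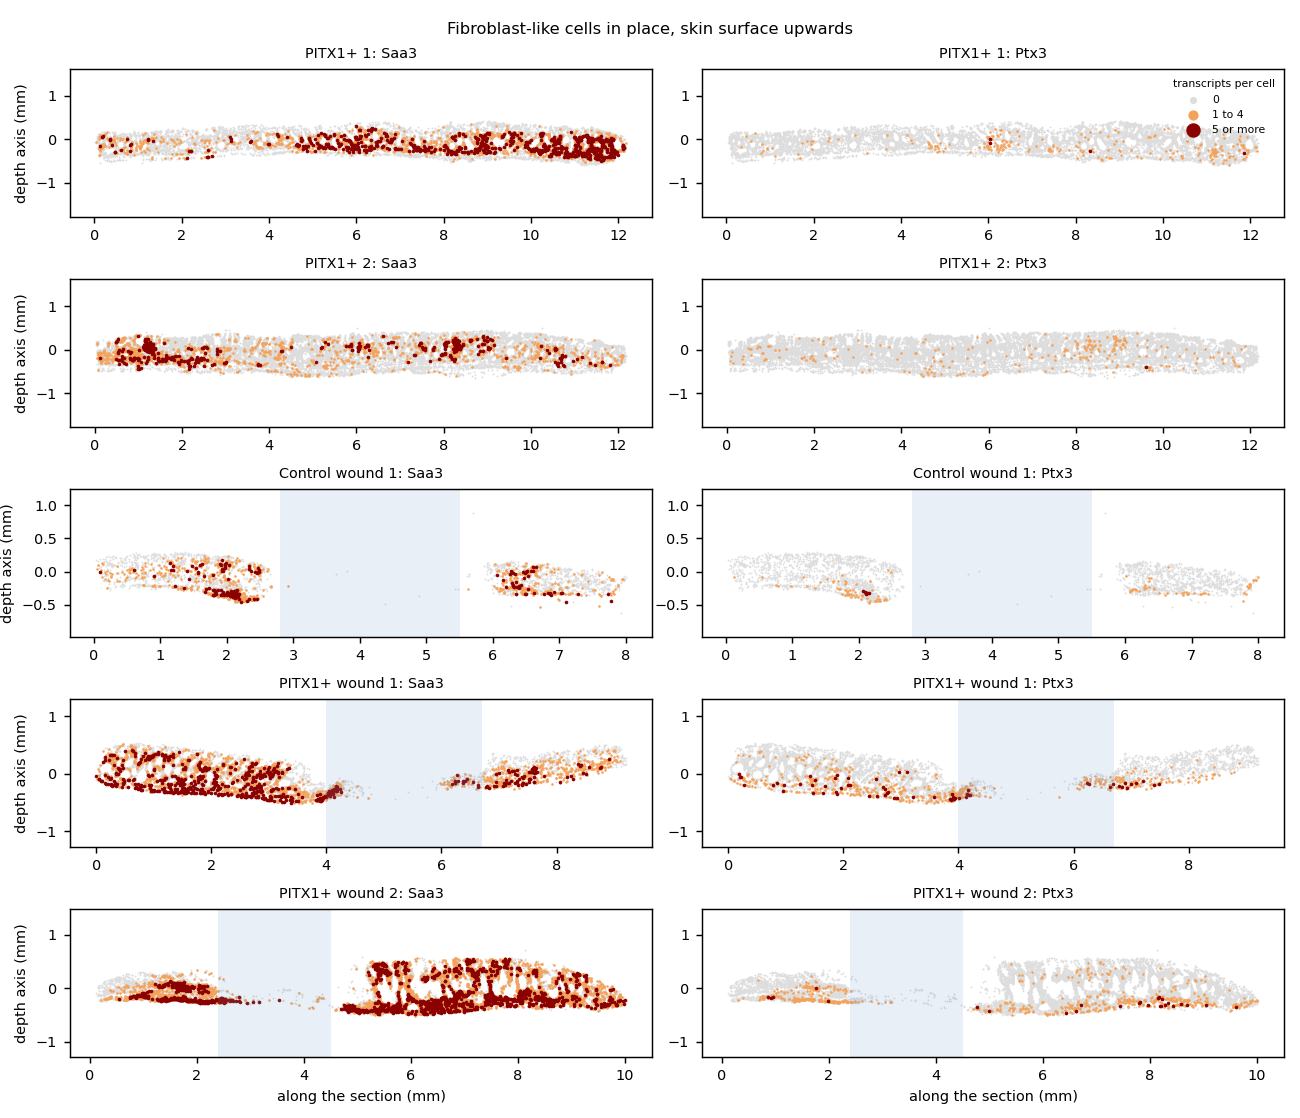
Fibroblast-like cells of the PITX1+ 1 and PITX1+ 2 sections and of the 3 wounds in place, with axes in mm and the skin surface upwards, for Saa3 (left) and Ptx3 (right). Grey cells hold 0 transcripts, orange 1 to 4 and dark red 5 or more, blue bands mark the wound beds, and Ptx3 gathers at the bed of PITX1+ wound 1 while Saa3 is spread along the sections.

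The 2 genes were read in the same cells more often than their single shares would give. In PITX1+ wound 1, 80.5% of the fibroblast-like cells with Ptx3 also held Saa3, against 35.0% of those without Ptx3. In the Control wound these shares were 68.5% and 30.1%, in PITX1+ wound 2 86.7% and 49.6%, and in PITX1+ 1 59.3% and 23.4%. Cells with more transcripts hold more of any gene, so the count of cells with both was also set against the product of the shares within bins of cells by total. It was then 1.56 to 3.14 times that product over 7 sections, the highest ratio resting on 7 cells with both in PITX1+ 3. Within the inflammatory kind alone the ratio was smaller, 1.04 in PITX1+ 1 and 1.24 to 1.52 in the wounds. In macrophage-like cells it was 1.63 to 2.01 in 5 sections and 0.870 in PITX1+ 4, which rests on 1 cell with both. Cells without Ptx3 within 30 µm of a cell with it also held Saa3 more often. In PITX1+ wound 2 the share with Saa3 was 69.1% within 30 µm, 47.9% at 30 to 100 µm and 34.2% beyond, and in PITX1+ 2 it was 20.1%, 13.2% and 10.4%. The order was the same in all 7 sections, but no depth correction was made. Median transcripts per cell fell over the same distances from 96 to 53.5 in PITX1+ wound 1, from 78 to 51 in PITX1+ 3 and from 115 to 77 in PITX1+ 4, and ran from 73 to 71 in PITX1+ wound 2.

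In buccal mucosa, fibroblast-like cells gave 0 Saa3 transcripts in 5 of 7 sections and 1 in each of the other two, so a level was not detectable at this depth. Ptx3 was read 0 to 9 times per section in them. The filter on low counts removed both members from the edgeR comparison of buccal with Control fibroblast-like cells, in which 287 genes were tested and 32.1% called. Without that filter Saa3 was lower by a log2 fold change of -4.50 (SE 1.05, edgeR adjusted p = 0.00665) and Ptx3 was at -1.09 (SE 0.63, edgeR adjusted p = 0.185). With reads of any quality score counted, Saa3 was at -2.21 (edgeR adjusted p = 0.0331) and Ptx3 at -1.31, which passed (edgeR adjusted p = 0.0232). Most buccal cells of this class lay in a cluster led by Angptl1 and Abca8a, as 1431 of 1583 did in Buccal 1, while Control 1 and Control 3 had 77 and 176 cells there, so tissue and cluster moved together. The Saa3 value depends on the prior count that edgeR adds to such low counts and is no bound.

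Over 94 pairs of section and cell class with at least 100 cells, the genes whose levels most resembled Saa3 were Ccn4 (r = 0.80), Cxcl1 (0.74), Tnc (0.73), Spp1 (0.72) and Il1b (0.71). Those nearest Ptx3 were Ccn1 (0.70), Gpx3 (0.70), Ncam1 (0.67), Itga5 (0.61) and Lamc1 (0.60), and the members resembled each other less, at 0.43. Pearson correlations of log2(CPM + 10) are given as a description, since the pairs share sections and depth. In fibroblast-like cells Ccn4, a matricellular gene of the Wnt pathway, was higher in the sections placed as PITX1+ by 1.55 (SE 0.35, edgeR adjusted p = 0.0134), and Gpx3, a plasma glutathione peroxidase, was lower by -1.81 (SE 0.36, edgeR adjusted p = 0.00845). The neural adhesion gene Ncam1 was higher by 1.36 (SE 0.34, edgeR adjusted p = 0.0171). Cxcl1 at 1.94, Tnc at 1.42, Spp1 at 1.31, Il1b at 0.71, Itga5 at 0.47, Ccn1 at 0.06 and Lamc1 at -0.41 did not pass there. All were picked because their levels followed a member over these same sections, so these tests are no independent support.

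The genes around the members were read from a list grouped by role. Its 24 panel genes were 4 upstream cytokines such as Il1b and Tnf, 5 of their receptors and antagonists, 6 transcription factors and 9 other inflammation-induced stromal genes. In fibroblast-like cells 0 of 24 passed the edgeR test of the sections placed as PITX1+ against Control and 4 had an unadjusted p under 0.05, against 93 of all 328 genes, of which 16.5% were called, with a median log2 fold change of 0.04 for the list and 0.00 for all genes. Within it the 9 stromal genes, which include Cxcl5, Timp1 and Mmp3, had a median of 0.85. In immune-like cells 0 of 24 passed and 5 had an unadjusted p under 0.05, against 54 of all 326 genes, with a median of 0.51 for the list and 0.11 for all genes. In keratinocyte-like cells 1 was higher, the C/EBP factor Cebpb at 1.22 (edgeR adjusted p = 0.0153), and 3 were lower, 4 of 24 against the 32.9% of all genes called there. These were the AP-1 factor Fos at -1.09, the interleukin 18 receptor Il18r1 at -1.58 and the shared interleukin 6 receptor subunit Il6st at -0.80 (edgeR adjusted p = 0.0198, 0.0198 and 0.0208), and the median was 0.21 against -0.05 over all genes. Of 18 genes of the list tested in buccal against Control fibroblast-like cells, 2 were higher and 5 lower, 7 of 18 against the 32.1% of all genes called there, with a median of -0.64 against -0.22 over all genes. Cebpb at 2.75 and Cebpg at 1.71 were higher, and the interleukin 1 receptor chains Il1r1 at -1.27 and Il1rap at -0.89, Il18r1 at -2.71, the stress factor Atf3 at -2.87 and the adhesion gene Icam1 at -0.95 were lower, on the log2 scale with edgeR adjusted p between 0.000510 and 0.0348.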

How the data were processed

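Xenium in situ data of 4 slides of FFPE mouse tissue were analysed. The deposited tables list every decoded transcript with its gene, position and cell, and a quality score that the instrument software of the authors' run gave each read. The deposited cell tables hold counts per cell from the same run. The tool versions behind them are not given in the sources used here. Reads scoring under 20 were dropped, the rest were summed for each cell, and cells with under 10 transcripts were left out. Sections were cells chained within 100 µm (200 µm in wounds) with at least 2000 cells. Their condition came from their order on the slide, not from the labels. In unwounded skin, cell totals lay within 0.493% of totals that the study lists for the same condition. Wound conditions followed by order, the last PITX1+ wound by elimination.

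Cells were clustered by k-means into 45 clusters over 40 principal components, without Saa3 and Ptx3, and classes were named from marker genes. No doublet caller was run. Mixed outlines therefore remain. Counts summed per section and class were tested with edgeR 4.0.16 (quasi-likelihood, slide as covariate, Benjamini-Hochberg adjusted p under 0.05) in R 4.3.3, and with DESeq2 1.42.0 as an alternative. Slide and sex of the unwounded skin cannot be told apart. Section levels were compared by exact two-sided permutation tests. Intervals are exact Poisson and cover counting error only. Each slide is a single sample in the labels, and sections stand as replicates, so p-values measure the spread between sections. Named genes were the members, the 5 genes most like each and the called genes of the pathway list. The members and lists were chosen with earlier results of these data known. The edgeR script was tested on simulated data. Python 3.11.15 and scikit-learn 1.9.0 were used. Alternatives were other normalization, filters, quality scores, nuclear reads, cluster numbers, covariates and leaving out each section.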

Additional observations from a re-analysis of the deposited data

Results flagged for a closer look

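Of 19 groups of sections checked for a single section far from the rest, 6 had one, where chance gives about 1 in 20. In all cells, Ptx3 of Buccal 3 stood at 298 CPM, with the next buccal section at 59.0 CPM. In fibroblast-like cells, Ptx3 of Buccal 3 stood at 201 CPM from 5 transcripts, with the next at 86.2 CPM. In mesenchymal-like cells, Ptx3 of Buccal 3 stood at 936 CPM from 18 transcripts, with the next at 432 CPM. In immune-like cells, Saa3 of Buccal 3 stood at 174 CPM, which is 1 transcript, with the other buccal sections at 0. Buccal 3 had the fewest transcripts of all sections, 136365. In immune-like cells, Ptx3 of PITX1+ 1 stood at 907 CPM, with the next PITX1+ section at 210 CPM. In mesenchymal-like cells, Saa3 of PITX1+ 1 stood at 6124 CPM, with the next at 582 CPM.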

How the results depend on the processing

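Of 258 alternative values, 209 kept their direction, side of the threshold or size, 27 moved, 15 passed only under the alternative, 2 no longer passed and 5 reversed. In fibroblast-like cells Saa3 no longer passed without the slide covariate (5.56) or on the male slide alone (2.06), and stayed past the threshold without any 1 section (4.37 to 6.37). The count of genes called there, 54, became 0 without the covariate, 25 with male skin alone and 32 with female skin alone, and ranged from 14 to 65 leaving out 1 section (28 without PITX1+ 1, 14 without PITX1+ 2). In immune-like cells Saa3 passed with DESeq2 (4.87), library size scaling (5.72), nuclear reads (4.83), at least 20 transcripts per cell (6.37), 30 clusters (5.81) and the female slide alone (6.85), which called 23, 3, 8, 2, 1 and 20 genes in that order, against 0. Leaving out 1 section gave 4.45 to 7.004, past the threshold without Control 3 (7.004) or PITX1+ 4 (5.67), and 0 to 27 genes (11 without Control 3, 1 without PITX1+ 2, 27 without PITX1+ 4). In keratinocyte-like cells Saa3 turned to -0.16 at any quality score. Ptx3 there passed with DESeq2 (-1.06), library size scaling (-1.25), any quality score (-1.23) and the female slide (-0.74). Leaving out 1 section gave -1.31 to -0.81, past the threshold without PITX1+ 4 (-0.93). The 108 genes called became 188 with DESeq2, 35 without the covariate and 62 on the male slide, with 33 to 123 leaving out 1 section (45 without Control 1, 33 without Control 2, 38 without PITX1+ 2).

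Over all cells, the Ptx3 difference between PITX1+ and Control skin turned to -0.22 at any quality score and ranged from -0.30 to 0.34 leaving out 1 section (-0.26 without Control 3, -0.30 without PITX1+ 1). That between buccal mucosa and Control skin turned to 0.17 per cell. Leaving out 1 section, buccal Saa3 ranged from -4.38 to -3.67 and Ptx3 from -1.78 to -1.09, and both passed without Buccal 3. The 92 genes called in buccal fibroblast-like cells ranged from 54 without Control 2 to 165 without Control 3. In the wounds, the Saa3 ratio to the Control wound was 1.96 for PITX1+ wound 2 in CPM. From nuclear reads the ratios were 1.94 and 2.63 for Saa3 and 3.78 and 1.39 for Ptx3. Leaving out the wound bed, an alternative chosen after seeing the data, moved none of the 4 wound ratios beyond its interval. The causes of these changes were not tested. Depth limits Saa3 in Control skin, where 6 to 14 transcripts were read in fibroblast-like cells per section. No paired analysis was possible because the labels number slides, each as replicate 1, and no section, so no number pairs a Control with a PITX1+ section. The slide, which holds both conditions, was a covariate in edgeR instead.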
